A study of Mus musculus with 12 samples.

Results

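The 10 genes described here are markers of mural cells, the pericytes and vascular smooth muscle cells that wrap blood vessels: Rgs5, Abcc9, Kcnj8, Anpep, Vtn, Higd1b, Ndufa4l2, Acta2, Tagln and Myh11. They were chosen by symbol from a given list and matched to 10 of the 49671 genes of the deposited count table. All 10 were among the 17812 genes that passed the filter on low counts. The RNA came from 12 pieces of mouse brain kept in paraffin after formalin fixation, 3 in each of 4 groups. The 9 brain tumours carry the tumour genotype IDH1_R132H (mutant isocitrate dehydrogenase 1), IDH1WT (the wild-type enzyme) or PDGFA (platelet-derived growth factor A), and were compared with 3 normal brains. The mice of all 4 groups have the genotype N::TVA with homozygous floxed alleles, Cdkn2a and Atrx among them, but the mice that gave the normal brains are TVA negative. TVA is an avian virus receptor that lets matching viral vectors enter mouse cells. The labels give no age, sex or batch, do not spell out what drives TVA, do not state if PDGFA was given to the IDH1 tumours as well, and do not say how much normal tissue each tumour piece holds. Each sample has its own number, but nothing states that each is a separate animal, so p-values measure the spread between these samples.

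In the brain, pericytes sit on capillaries inside the vessel's basement membrane, and smooth muscle cells ring the arterioles and arteries. Both are recruited to growing vessels by platelet-derived growth factor B from endothelial cells, which acts on the receptor Pdgfrb, and pericytes help to keep the blood-brain barrier closed. Vessels of gliomas are often enlarged and unevenly covered by these cells. Smooth muscle is marked by contractile proteins, whereas brain pericytes are better known by a potassium channel, a regulator of G protein signalling and several surface and secreted proteins.

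Total counts ran between 6507923 and 14277395 per library. Loci that collect ribosomal RNA reads and similar abundant transcripts took 38.5% of the count in IDH1_R132H tumour 3 and 2.26% to 4.04% in each other library. PDGFA tumour 1 had a summed level of 539 CPM (read counts scaled to library size) over 10 oligodendrocyte precursor markers, close to the 502 to 529 CPM of the normal brains and below the 1340 to 6650 CPM of the other 8 tumours. Normal brains 1 and 2 resembled each other closely: the mean chi-square of a gene's counts was 2.59 between them, and 28.9 and 30 between either of them and normal brain 3. Sampling noise alone gives about 1, and pairs within a tumour group had 12.3 to 347. A value above 1 cannot tell separate animals from separate preparations of the same brain. Both were kept as samples, so the normal group may hold fewer than 3 independent brains. Vessel cells were present in every library: Pdgfrb had 188 to 743 counts, Notch3 180 to 497 and the endothelial marker Pecam1 123 to 395, while the smooth muscle marker Cnn1 had only 2 to 11 counts and was not tested.

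Across the 9 tumours against the 3 normal brains, 2 of the 10 mural genes rose, Rgs5 and Abcc9, and 0 fell. The potassium channel pore Kcnj8 had a difference nearly as large as that of Abcc9 but missed the threshold, an adjusted p under 0.05 in edgeR's quasi-likelihood test over all genes. The contractile genes Acta2 and Myh11 had log2 fold changes at or below 0 that did not pass. Tagln, the remaining contractile gene, had a positive one of 0.63 that did not pass either (adjusted p = 0.15). Over all 17812 genes tested, 5.22% were called in this comparison and 3.71% were called higher. The median log2 fold change of the 10 genes was 0.59, against -0.01 over all genes. The same 3 normal brains serve as the reference of every tumour group, so the comparisons with normal brain share their error. In bulk tissue, fewer cells of a type and less RNA per cell cannot be told apart.

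**Figure D1:**
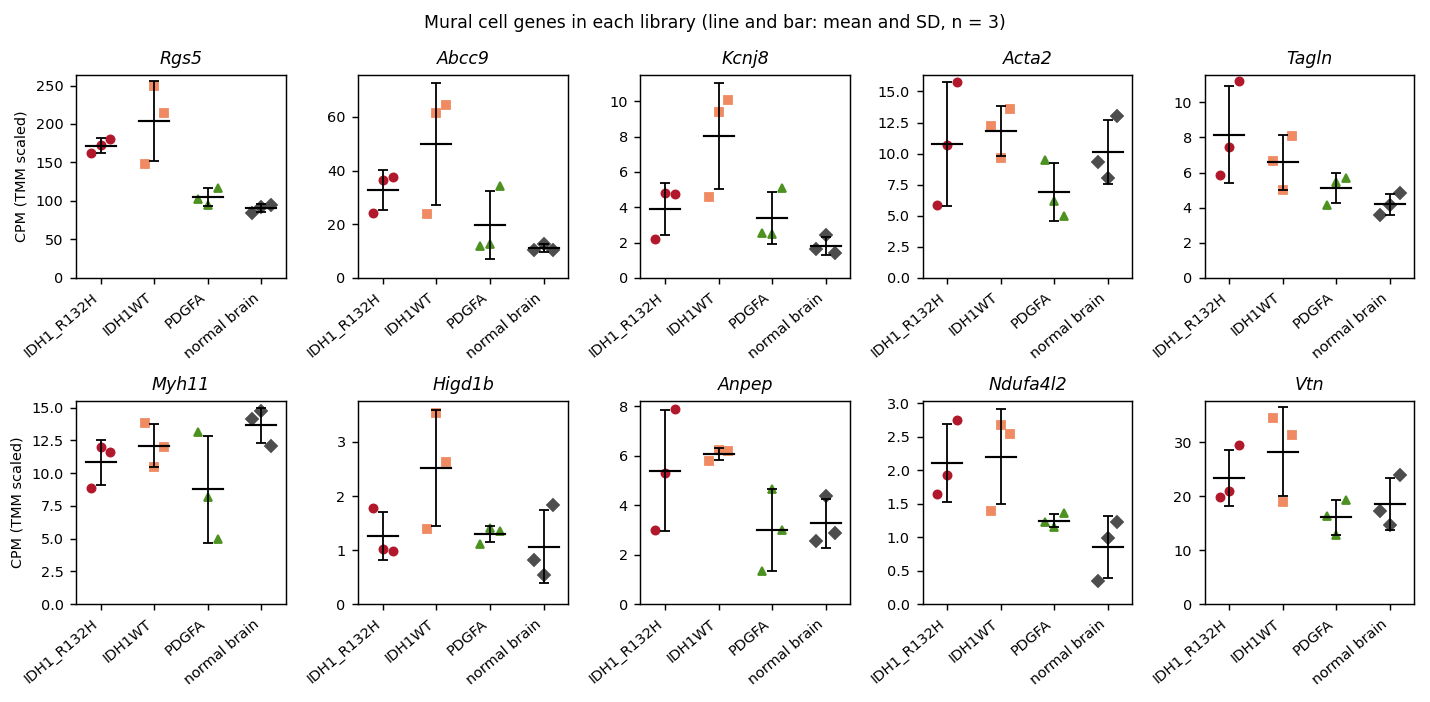
TMM-scaled CPM of each mural gene (y axis, from 0) in the 12 libraries; points are libraries, the horizontal line is the group mean and the bar its SD (n = 3). For Rgs5 the 6 IDH1_R132H and IDH1WT tumours lie at 148 to 250 CPM, above the PDGFA tumours (94.2 to 117 CPM) and the normal brains (84.8 to 94.3 CPM).

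Rgs5 (chromosome 1, 169655501 to 169695813, plus strand, GRCm38) encodes a regulator of G protein signalling and is one of the best known pericyte genes of mouse brain. Its level was 162, 173 and 181 CPM in the IDH1_R132H tumours, 148, 250 and 214 CPM in the IDH1WT tumours, 103, 94.2 and 117 CPM in the PDGFA tumours and 84.8, 92.2 and 94.3 CPM in the normal brains. Every IDH1_R132H and IDH1WT tumour stood above every normal brain and above every PDGFA tumour, whereas PDGFA tumour 2 fell within the range of the normal brains. In tumours Rgs5 rose by a log2 fold change of 0.77 with an SE of 0.155 (edgeR adjusted p = 0.021), with 8 of 9 tumours above the highest normal brain. Taken by group, it rose in IDH1_R132H tumours by 0.93 (SE 0.183, adjusted p = 0.019) and in IDH1WT tumours by 1.17 (SE 0.184, adjusted p = 0.022). In PDGFA tumours its log2 fold change over normal brain was 0.21 (SE 0.182, adjusted p = 0.75).

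Abcc9 (chromosome 6, 142587862 to 142702315, minus strand) encodes SUR2, the regulatory subunit of the vascular ATP-sensitive potassium channel. It stood at 24.1, 36.6 and 37.5 CPM in the IDH1_R132H tumours, 23.9, 61.3 and 64.5 CPM in the IDH1WT tumours, 12, 12.8 and 34.4 CPM in the PDGFA tumours and 10.3, 12.8 and 10.4 CPM in the normal brains. PDGFA tumours 1 and 2 were at the level of normal brain, and the other 7 tumours lay above all 3 normal brains. In all tumours Abcc9 rose by 1.51 in log2 terms (SE 0.382, edgeR adjusted p = 0.042), and in IDH1WT tumours by 2.15 (SE 0.44, adjusted p = 0.035). Its log2 fold change was 1.55 in IDH1_R132H tumours (SE 0.437, adjusted p = 0.052) and 0.82 in PDGFA tumours (SE 0.433, adjusted p = 0.54), or 0.15 without PDGFA tumour 3.

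Kcnj8 (chromosome 6, 142564837 to 142571614, minus strand) encodes Kir6.1, the pore that assembles with SUR2, and lies 16247 bases from Abcc9. It had 14 to 107 counts per library. Its level was 2.18, 4.78 and 4.74 CPM in the IDH1_R132H tumours, 4.57, 9.39 and 10.1 CPM in the IDH1WT tumours, 2.57, 2.49 and 5.08 CPM in the PDGFA tumours and 1.62, 2.41 and 1.4 CPM in the normal brains. IDH1WT tumours 2 and 3, the 2 libraries with the highest Rgs5 and Abcc9, also had the highest Kcnj8. The log2 fold change in all tumours was 1.38 (SE 0.385, edgeR adjusted p = 0.056), with 8 of 9 tumours above the highest normal brain, and Kcnj8 rose in IDH1WT tumours by 2.14 (SE 0.439, adjusted p = 0.035). Its log2 fold change was 1.11 in IDH1_R132H tumours (adjusted p = 0.15) and 0.91 in PDGFA tumours (adjusted p = 0.51).

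The calls rest on the small set of normal brains. Leaving out any 1 of normal brains 1 to 3 ended every call among the 10 genes: for Rgs5 in all tumours the adjusted p was then 0.14, 0.13 or 0.094 and for Abcc9 0.2, 0.16 or 0.16, with log2 fold changes of 0.72 to 0.80 and 1.45 to 1.61. The Abcc9 call in all tumours was also lost without IDH1_R132H tumour 2 (adjusted p = 0.077) or 3 (0.054) or IDH1WT tumour 2 (0.063) or 3 (0.064). In IDH1WT tumours the calls of all 3 genes were lost without IDH1WT tumour 2 or 3 (adjusted p of 0.06 to 0.14), and those of Abcc9 and Kcnj8 also without IDH1_R132H tumour 2 (0.058 and 0.057). The Rgs5 call in IDH1_R132H tumours was lost without IDH1_R132H tumour 2 (adjusted p = 0.074). With IDH1_R132H tumour 3 and PDGFA tumour 1 both left out, Rgs5 (0.77, edgeR adjusted p = 0.0093), Abcc9 (1.56, 0.015) and Kcnj8 (1.39, 0.032) all rose in tumours.

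The 3 genes that rose in at least 1 tumour group all have RefSeq promoter entries. The bases before their starts are shown here because all 3 genes were highest in IDH1WT tumours 2 and 3. In other libraries they did not always go together: IDH1_R132H tumour 1 had 162 CPM of Rgs5 but the lowest Kcnj8 of the tumours (2.18 CPM). Each is read 5′ to 3′ on the gene's strand of GRCm38.p6, with letters that match a searched motif in capitals. The Abcc9 stretch stops 41 bases before the RefSeq start, where the first exon in GENCODE's annotation begins.
Rgs5, chr1:169655251-169655500, plus strand: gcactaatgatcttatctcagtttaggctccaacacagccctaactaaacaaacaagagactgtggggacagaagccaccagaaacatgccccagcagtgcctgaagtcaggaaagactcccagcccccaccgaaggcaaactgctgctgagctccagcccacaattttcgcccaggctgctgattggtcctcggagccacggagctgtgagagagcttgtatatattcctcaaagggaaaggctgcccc
Abcc9, chr6:142702316-142702524, minus strand: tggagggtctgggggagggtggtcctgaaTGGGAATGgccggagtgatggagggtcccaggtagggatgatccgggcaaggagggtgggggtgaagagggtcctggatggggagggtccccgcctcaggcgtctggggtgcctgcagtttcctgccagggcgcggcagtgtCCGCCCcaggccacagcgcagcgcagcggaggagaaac
Kcnj8, chr6:142571615-142571864, minus strand: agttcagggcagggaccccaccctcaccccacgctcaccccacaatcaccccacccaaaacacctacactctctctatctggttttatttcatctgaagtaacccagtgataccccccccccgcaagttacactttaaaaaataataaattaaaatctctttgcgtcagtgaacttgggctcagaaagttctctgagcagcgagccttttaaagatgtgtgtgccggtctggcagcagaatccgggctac

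The motifs searched on both strands were TGGGAA (bound by RBPJ, the Notch effector), CATTCC (the MCAT element, bound by TEAD factors), GGGCGG (the GC box), ACGTG (the core of the hypoxia response element) and the CArG box, the site of serum response factor, which drives contractile genes of smooth muscle. Windows of 250 bases before the RefSeq start were available for 6 of the 10 genes: Rgs5, Abcc9, Kcnj8, Acta2, Anpep and Vtn. In Abcc9 the TGGGAA and the reversed CATTCC share 4 bases, 221 to 214 bases before the start, and a reversed GGGCGG stands at 79 to 74. No letters of the Rgs5 and Kcnj8 windows matched any of the motifs. TGGGAA was found in 3 of the 6 windows (Abcc9, Acta2 and Vtn) and in 21.6% of all 32851 promoter windows, CATTCC in the same 3 and in 12.6%, GGGCGG in 2 (Abcc9 and Anpep) and in 32.7%, and ACGTG in 0 and in 16.6%.

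Anpep and Vtn are the surface and secreted members. Anpep (chromosome 7, 79821803 to 79861059) encodes aminopeptidase N, or CD13, which brain pericytes carry on their surface. Its level was 3, 5.29 and 7.89 CPM in the IDH1_R132H tumours, 5.77, 6.22 and 6.21 CPM in the IDH1WT tumours, 1.34, 4.64 and 2.99 CPM in the PDGFA tumours and 2.54, 4.39 and 2.89 CPM in the normal brains. The IDH1WT tumours lay close together and above every normal brain, while PDGFA tumour 1 had the lowest level of the 12 libraries. The log2 fold change was 0.49 in all tumours (SE 0.359, edgeR adjusted p = 0.43) and 0.89 in IDH1WT tumours (SE 0.423, adjusted p = 0.28).

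Vtn (chromosome 11, 78499091 to 78502324) encodes vitronectin, an adhesive matrix protein that pericytes of the mouse brain secrete. It ranged from 19.9 to 29.4 CPM in the IDH1_R132H tumours, 18.9 to 34.5 CPM in the IDH1WT tumours, 12.8 to 19.3 CPM in the PDGFA tumours and 14.6 to 23.9 CPM in the normal brains. Each tumour group overlapped the normal brains. The log2 fold change of Vtn was 0.24 in all tumours (SE 0.222, edgeR adjusted p = 0.54), 0.61 in IDH1WT tumours (adjusted p = 0.24) and -0.20 in PDGFA tumours (adjusted p = 0.86).

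Higd1b and Ndufa4l2 encode small mitochondrial proteins, relatives of Higd1a and Ndufa4, and both were near the limit of detection. Higd1b (chromosome 11, 102835849 to 102838040) had 5 to 29 counts per library. It stood at 1.77, 1.02 and 0.987 CPM in the IDH1_R132H tumours, 1.39, 3.54 and 2.63 CPM in the IDH1WT tumours, 1.12, 1.41 and 1.36 CPM in the PDGFA tumours and 0.808, 0.549 and 1.84 CPM in the normal brains. Only IDH1WT tumours 2 and 3 exceeded every normal brain, and the log2 fold change in IDH1WT tumours was 1.18 (SE 0.486, edgeR adjusted p = 0.22). Without normal brain 3, which had the highest level of the 3, it was 1.84 (SE 0.523, adjusted p = 0.16), and that in all tumours was 1.22 against 0.55 with all 12 libraries.

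Ndufa4l2 (chromosome 10, 127514967 to 127517154), a target of hypoxia-inducible factor in other tissues, had 3 to 27 counts. It ranged from 1.64 to 2.76 CPM in the IDH1_R132H tumours, 1.39 to 2.68 CPM in the IDH1WT tumours, 1.16 to 1.36 CPM in the PDGFA tumours and 0.346 to 1.23 CPM in the normal brains. The IDH1_R132H and IDH1WT tumours all lay above the normal brains, and the log2 fold change in all tumours was 1.02 (SE 0.389, edgeR adjusted p = 0.13). Its widely expressed relative Ndufa4 had a log2 fold change of -0.44 (SE 0.28, adjusted p = 0.37), or 0.18 without normal brain 3, and Higd1a, the relative of Higd1b, one of -0.03 (SE 0.173, adjusted p = 0.93).

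Of the 3 contractile members, 0 were called in all tumours by edgeR and 0 by DESeq2. In edgeR 1 of them (Tagln) had an unadjusted p under 0.05, as did 23.6% of all genes. The result depends on the method: voom with quality weights, which called many more genes than edgeR did, called Myh11 lower. Acta2 (chromosome 19, 34241090 to 34255590) encodes smooth muscle alpha-actin. Its level was 5.86, 10.7 and 15.8 CPM in the IDH1_R132H tumours, 12.2, 9.63 and 13.6 CPM in the IDH1WT tumours, 9.5, 6.22 and 4.98 CPM in the PDGFA tumours and 9.35, 8.01 and 13 CPM in the normal brains. The lowest and the highest IDH1_R132H tumour lay on either side of all normal brains. The highest was IDH1_R132H tumour 3, with 38.5% of its count in loci that collect ribosomal RNA reads and similar transcripts. That library was also the highest tumour for Tagln, Anpep and Ndufa4l2, and the part of its quality in these levels was not tested. The log2 fold change of Acta2 was -0.09 in all tumours (SE 0.28, edgeR adjusted p = 0.89), 0.07 in IDH1_R132H tumours and -0.56 in PDGFA tumours (SE 0.348, adjusted p = 0.62).

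Myh11 (chromosome 16, 14194535 to 14291372), the smooth muscle myosin heavy chain, stood at 8.86, 12 and 11.6 CPM in the IDH1_R132H tumours, 13.8, 10.5 and 12 CPM in the IDH1WT tumours, 13.1, 8.21 and 4.98 CPM in the PDGFA tumours and 14.1, 14.7 and 12.1 CPM in the normal brains. None of the 9 tumours exceeded the highest normal brain and 7 lay below the lowest. The log2 fold change was -0.38 in all tumours (SE 0.232, edgeR adjusted p = 0.35) and -0.64 in PDGFA tumours (SE 0.292, adjusted p = 0.46). Without PDGFA tumour 1 the log2 fold change of Myh11 in PDGFA tumours was -1.04 and passed the threshold (adjusted p = 0.046).

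Tagln (chromosome 9, 45929619 to 45936058), which encodes the actin-binding protein SM22-alpha, leaned the other way. It stood at 5.86, 7.43 and 11.2 CPM in the IDH1_R132H tumours, 6.63, 5 and 8.09 CPM in the IDH1WT tumours, 4.14, 5.47 and 5.71 CPM in the PDGFA tumours and 3.58, 4.17 and 4.81 CPM in the normal brains. Each of the IDH1_R132H and IDH1WT tumours exceeded every normal brain. Its log2 fold change was 0.63 in all tumours (SE 0.247, edgeR adjusted p = 0.15) and 0.95 in IDH1_R132H tumours (SE 0.295, adjusted p = 0.069). In GENCODE's annotation, 62.4% of the exonic bases of Tagln are also exons of Gm48529 on the opposite strand and 5.43% of Pcsk7, so without a stated strand setting its reads cannot be assigned with certainty. The same overlap covers 1.89% of Abcc9 (with 5330439B14Rik) and 2.92% of Ndufa4l2 (with Shmt2).

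A pair of short stretches from the Acta2 window are shown, because they hold the only CArG-type letters found in the 6 windows. Capitals mark the box, and both lie within the first exon of a GENCODE transcript that starts upstream of the RefSeq start.
Acta2, chr19:34255438-34255467, minus strand: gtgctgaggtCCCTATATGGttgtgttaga
Acta2, chr19:34255388-34255417, minus strand: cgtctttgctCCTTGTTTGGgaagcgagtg
The boxes stand 84 to 75 and 34 to 25 bases before the RefSeq start, and each has 1 G or C in its core. The exact CArG box was found in 0 of the 6 windows and in 1.47% of all promoter windows, and the form with 1 G or C in 7.24%. The second box shares its last bases with a TGGGAA at 27 to 22.

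**Figure D2:**
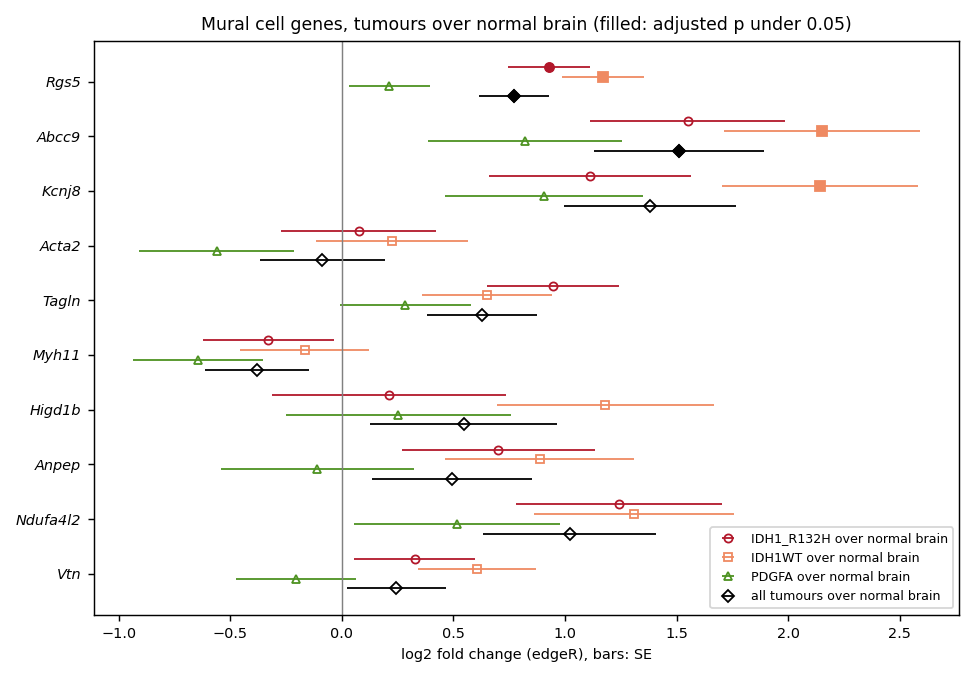
Log2 fold change over normal brain from edgeR (x axis) with its SE, for each mural gene and each tumour group; filled symbols have an adjusted p under 0.05. Rgs5, Abcc9 and Kcnj8 lie to the right, at 1.17, 2.15 and 2.14 in IDH1WT tumours, and Acta2 and Myh11 lie near or left of 0. Tagln, the remaining contractile gene, lies right of 0.

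By tumour group, 1 of the 10 genes rose in IDH1_R132H tumours (7.17% of all genes were called, 4.83% higher), 3 rose in IDH1WT tumours (1.72% and 1.57%) and 0 changed in PDGFA tumours (0.303% and 0.258%), where DESeq2 also called 0. In PDGFA tumours, 1 of the 10 had an unadjusted p under 0.05, as did 10.6% of all genes. The median log2 fold change of the 10 genes over normal brain was 0.82 in IDH1_R132H tumours, 1.03 in IDH1WT tumours and 0.23 in PDGFA tumours, and the medians of all genes lay between -0.01 and 0.00. Groups did not overlap, with the tumours higher, for 4 of the 10 genes in IDH1_R132H tumours (19.4% of all genes), 6 in IDH1WT tumours (17.4%) and 1, Kcnj8, in PDGFA tumours (8.23%).

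The direct comparisons between tumour groups ask whether these differences from normal brain differ among the tumours. In each of the 3, edgeR called 0 of the 10 genes and 0% of all genes. An unadjusted p under 0.05 was found for 1 of the 10 genes in IDH1_R132H against IDH1WT tumours (2.67% of all genes), 2 in IDH1_R132H against PDGFA tumours (10.9%) and 6 in IDH1WT against PDGFA tumours (5.83%). In IDH1_R132H against IDH1WT tumours the median log2 fold change of the 10 genes was -0.22, and 9 of 10 were negative. The largest difference was that of Kcnj8, at -1.03 (SE 0.419, edgeR unadjusted p = 0.029, adjusted p = 1), where the groups overlapped. For Rgs5 it was -0.25 (SE 0.181), for Abcc9 -0.60 (SE 0.419) and for Tagln 0.30 (SE 0.287), each with an adjusted p of 1.

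In IDH1WT against PDGFA tumours all 10 mural genes had positive values, with a median of 0.87 against -0.01 over all genes. The 10 oligodendrocyte precursor markers were also all positive there (median 0.90), as were 11 of 15 endothelial markers (median 0.26). Of 12 neuronal markers 1 was positive (median -0.35). PDGFA tumour 1 had precursor levels near those of normal brain. The part of other cell types in the mural values was not tested. Rgs5 was at 0.96 (SE 0.183) and ranked 5 of the 17812 genes by p (unadjusted p = 0.00017, edgeR adjusted p = 0.62), and its groups did not overlap. Groups did not overlap, with IDH1WT tumours higher, for 4 of the 10 genes (Rgs5, Acta2, Anpep and Ndufa4l2), against 4.32% of all genes. DESeq2, the other count test, called Rgs5 in this comparison (adjusted p = 0.0021) and, in IDH1_R132H against PDGFA tumours, at an adjusted p of 0.037.

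In IDH1_R132H against PDGFA tumours 9 of 10 genes were positive with a median of 0.65. All 10 oligodendrocyte precursor markers were positive there, with a median of 1.29, as were 7 of 15 endothelial markers (median -0.01). The value for Rgs5 was 0.72 (SE 0.182, edgeR adjusted p = 0.28). Tagln had the next smallest p, at 0.66 (SE 0.291, adjusted p = 0.44), while Higd1b was at -0.04 (SE 0.513). Non-overlap with IDH1_R132H tumours higher held for 4 genes, Rgs5, Tagln, Ndufa4l2 and Vtn, against 5.86% of all genes. Ranked among the 9 tumours, IDH1WT tumour 3 was in the top 3 for 9 of the 10 genes, and PDGFA tumours 1 and 2 were each in the bottom 2 for 6.

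Per length of exon, Rgs5 was the most abundant of the 10 genes, with 35.3 ± 11.3 CPM per kb in tumours (SD, n = 9) and 19.9 ± 1.1 in normal brains (SD, n = 3). Vtn came next, at 11.1 ± 3.62 CPM per kb in tumours and 9.15 ± 2.36 in normal brains, followed by Acta2, at 4.48 ± 1.68 in tumours and 4.6 ± 1.16 in normal brains. The order below them differed between tissues. Abcc9 followed Acta2 in tumours at 4.07 ± 2.25 CPM per kb but stood at 1.34 ± 0.172 in normal brains, below Tagln (2.11 ± 0.31) and Myh11. Myh11 was last but for Anpep in tumours, at 1.39 ± 0.366 CPM per kb, and stood at 1.79 ± 0.181 in normal brains. In tumours Acta2, Abcc9 and Tagln (3.33 ± 1.06) differed by less than the SD of Acta2. Higd1b (2 ± 1.01), Kcnj8 (2 ± 1.12), Ndufa4l2 (1.69 ± 0.593), Myh11 and Anpep (1.16 ± 0.493) likewise differed by less than the SD of Higd1b.

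The channel subunits have paralogues that form the ATP-sensitive channel of neurons and endocrine cells, Abcc8 (SUR1) and Kcnj11 (Kir6.2). Abcc8 fell by 1.08 in log2 terms (SE 0.24, edgeR adjusted p = 0.028), to 19.3 ± 8.68 CPM in tumours against 39.2 ± 4.4 CPM in normal brains. Kcnj11 had a log2 fold change of -0.85 (SE 0.257, adjusted p = 0.071). The ratio of Abcc9 to Abcc8, both per length, was 1.76, 3.28 and 2.45 in IDH1_R132H tumours, 0.972, 5.06 and 2.69 in IDH1WT tumours, 0.298, 0.63 and 1.82 in PDGFA tumours and 0.231, 0.307 and 0.293 in normal brains. PDGFA tumour 1 lay among the normal brains and the other 8 tumours above them. The ratio of Kcnj8 to Kcnj11 was 0.136 to 1.5 in the tumours and 0.0635 to 0.118 in the normal brains, with no overlap. Over 12 neuronal markers, 0 were called in tumours, with a median log2 fold change of -0.40 and a summed level of 3440 to 7880 CPM in tumours and 6610 to 6970 CPM in normal brains, and their part in the fall of Abcc8 was not tested.

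**Figure D3:**
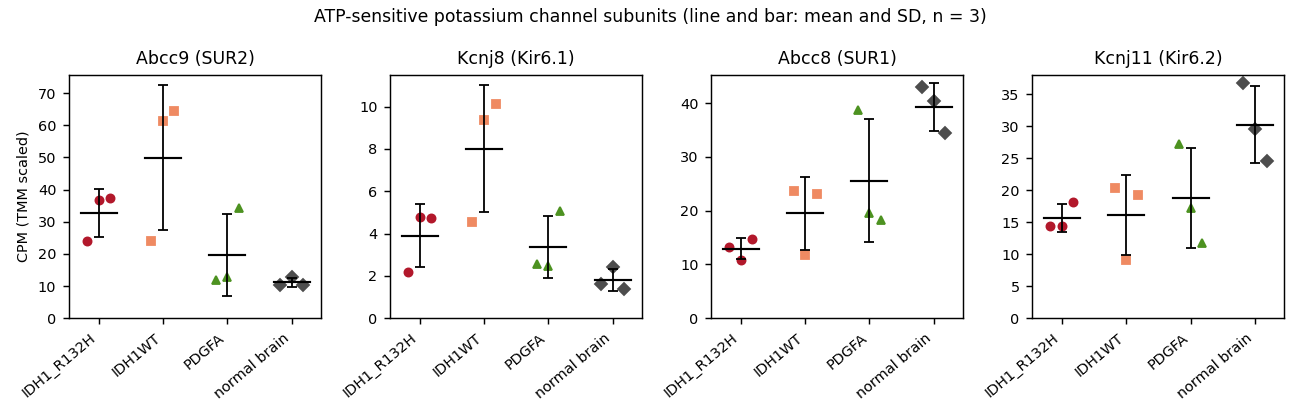
TMM-scaled CPM of the 4 subunits of ATP-sensitive potassium channels (y axis, from 0) in the 12 libraries; the line is the group mean and the bar its SD (n = 3). Abcc9 reaches 64.5 CPM in IDH1WT tumours and at most 12.8 CPM in normal brains, whereas Abcc8 is 10.8 to 38.8 CPM in tumours and 34.4 to 43 CPM in normal brains.

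Acta2 also has near-identical relatives. The smooth muscle gamma-actin Actg2 had 0 to 6 counts per library and the cytoskeletal Actg1 2.07 ± 1.05 CPM in tumours and 1.72 ± 0.444 CPM in normal brains, while Actb had 1440 ± 454 CPM in tumours and 635 ± 62.8 CPM in normal brains. The rule for reads with several matching places was not stated, so the levels of Acta2 and of these relatives are uncertain. The low value of Actg1 may thus not reflect its expression. Actb, the general cytoskeletal actin, rose in tumours by 1.15 (SE 0.215, edgeR adjusted p = 0.017), and Tagln2, a relative of Tagln that is not restricted to muscle, rose by 2.71 (SE 0.61, adjusted p = 0.029).

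Other pericyte genes were read from a list of 24, which was written with earlier results of these data known. Of the 23 tested, 2 rose in tumours and 0 fell, with a median log2 fold change of 0.35. Values ran from -1.06 to 3.88, and 16 of the 23 were positive. Mcam, the adhesion molecule CD146 of pericytes and endothelium, rose by 1.62 (SE 0.236, edgeR adjusted p = 0.011) to 57.2 ± 16.5 CPM in tumours against 18.4 ± 0.526 CPM in normal brains, and its groups did not overlap. Cspg4, the proteoglycan NG2, rose by 3.88 (SE 0.633, adjusted p = 0.015). Cspg4 is also a defining gene of oligodendrocyte precursors, of which 9 of 10 listed markers rose in tumours (539 to 6650 CPM summed in tumours, 502 to 529 CPM in normal brains), and their part in its rise was not tested.

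Pdgfrb, the receptor that recruits pericytes, stood at 30, 44.9 and 44.2 CPM in the IDH1_R132H tumours, 36.5, 58.3 and 69.9 CPM in the IDH1WT tumours, 23.3, 23.4 and 39.3 CPM in the PDGFA tumours and 23.9, 20.6 and 27.6 CPM in the normal brains. The IDH1_R132H and IDH1WT tumours all lay above the normal brains, and PDGFA tumours 1 and 2 lay within their range. Its log2 fold change in tumours was 0.72 (SE 0.233, edgeR adjusted p = 0.087). Notch3, a receptor needed for mural cell maturation, had one of 0.27 (SE 0.178, adjusted p = 0.38).

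Other smooth muscle genes, 21 of 23 tested, had a median log2 fold change of -0.24 in tumours, with 3 called higher and 0 lower. Only 7 of the 21 were positive, and values ran from -0.905 to 1.22. The risers were Tpm1 (0.69, SE 0.14, edgeR adjusted p = 0.022), Cnn2 (1.13, SE 0.237, adjusted p = 0.024) and Cald1 (0.92, SE 0.235, adjusted p = 0.043), actin-binding genes that many non-muscle cells also use. Desmin, the intermediate filament gene Des, had 10 to 35 counts and a log2 fold change of -0.12 (SE 0.311, adjusted p = 0.85).

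Signals that recruit or loosen mural cells were also read from a list of 16, of which 13 were tested, 3 rose in tumours and 0 fell. Angpt2, an endothelial factor that destabilises the contact between pericytes and vessels, rose by 3.75 (SE 0.528, edgeR adjusted p = 0.011), to 15.2 ± 8.31 CPM in tumours against 1.04 ± 0.403 CPM in normal brains. Tgfb1, a growth factor for mural differentiation, rose by 1.75 (SE 0.342, adjusted p = 0.019) and the Notch ligand Jag1 by 1.18 (SE 0.236, adjusted p = 0.021). Pdgfb, the ligand of Pdgfrb, had a log2 fold change of 0.48 (SE 0.224, adjusted p = 0.22).

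**Figure D4:**
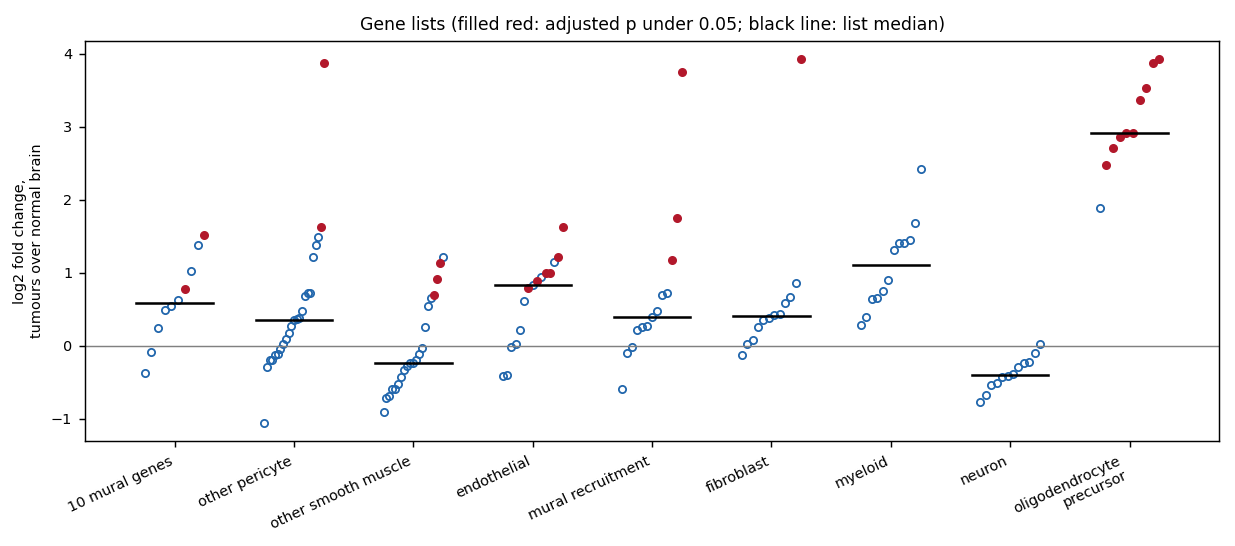
Log2 fold change of tumours over normal brain (y axis) for the tested genes of each list, 1 point per gene in order of size; filled red points have an adjusted p under 0.05 and the black line is the list's median. The 10 mural genes have a median of 0.59 and the other smooth muscle genes one of -0.24.

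Most endothelial markers were higher in the same comparison, but not all. Of 15 endothelial markers 6 rose in tumours and 0 fell, with a median log2 fold change of 0.83. Values ran from -0.42 to 1.62, and 12 of the 15 were positive. Among the risers were Kdr (1.22, SE 0.197, edgeR adjusted p = 0.015) and Vwf (1.62, SE 0.239, adjusted p = 0.012). The summed level of the 15 markers was 276 to 454 CPM in tumours and 233 to 260 CPM in normal brains, without overlap, and none was at 0 in any library. Their part in the rise of Rgs5 and Abcc9 was not tested. Of 12 myeloid markers 0 were called by edgeR (28.3 to 340 CPM summed in tumours, 90.8 to 156 CPM in normal brains), but all 12 had positive log2 fold changes in tumours, with a median of 1.11, and 6 had an unadjusted p under 0.05. That median lies above those of the endothelial markers and of the 10 mural genes, and the part of myeloid cells in the mural values was not tested. Of 12 fibroblast markers 1 rose, Pdgfra, which oligodendrocyte precursors share (161 to 1820 CPM summed in tumours, 203 to 263 CPM in normal brains). Of 11 tested hypoxia targets 2 rose, Adm (3.31, SE 0.768, adjusted p = 0.032) and Egln3 (0.97, SE 0.246, adjusted p = 0.043).

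Each mural gene was also set against the endothelial markers of its library, as its log2 CPM minus the mean log2 CPM of the 15 markers. That mean was 0.60 higher in tumours than in normal brains, so a gene with no change of its own falls by as much on this scale, and the median gene differed by -0.63. Acta2 averaged -0.97 ± 0.448 in tumours (SD, n = 9) and -0.27 ± 0.243 in normal brains (SD, n = 3). This difference of -0.71 is close to that of the median gene. In 8 of 9 tumours Acta2 lay below every normal brain, as 51.4% of all genes did in at least 8. Myh11 averaged -0.83 ± 0.403 in tumours and 0.18 ± 0.252 in normal brains, a difference of -1.01. It lay below every normal brain in 9 of 9 tumours, as did 29.1% of all genes. Tagln averaged -1.49 ± 0.412 in tumours and -1.48 ± 0.148 in normal brains. For Vtn, 6 of 9 tumours lay below every normal brain and 0 above, and 70.4% of all genes were below in at least 6.

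On the same scale Abcc9 averaged 0.68 ± 0.731 in tumours and -0.10 ± 0.257 in normal brains, with 7 of 9 tumours above every normal brain and 1, a PDGFA tumour, below; 4.36% of all genes were above in at least 7. Kcnj8 had 6 of 9 above and 0 below, and 6.06% of all genes were above in at least 6. For Rgs5, 3 of 3 IDH1_R132H tumours lay above every normal brain (6.15% of all genes), as did 2 of 3 IDH1WT tumours (6.05% were above in at least 2). The 3 PDGFA tumours lay below every normal brain, as for 36.1% of all genes, at 2.63 ± 0.215 in PDGFA tumours and 2.90 ± 0.097 in normal brains. The endothelial mean was 0.48 higher in PDGFA tumours than in normal brains, while the log2 fold change of Rgs5 itself was 0.21. These differences are descriptions of the libraries and were not tested.

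**Figure D5:**
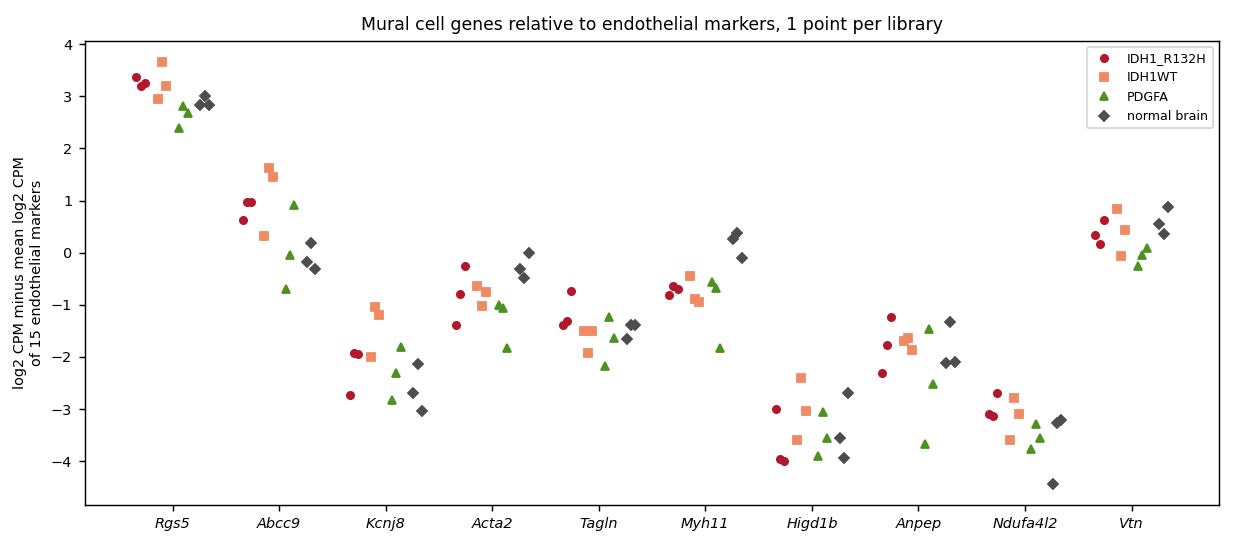
Log2 CPM of each mural gene minus the mean log2 CPM of 15 endothelial markers (y axis), 1 point per library. A gene with no change of its own lies about 0.60 lower in tumours, where the endothelial mean was higher. Abcc9 lies above every normal brain in 7 of 9 tumours and Kcnj8 in 6 of 9.

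Genes whose levels followed the members most closely were sought among 10067 genes by Pearson r of log2 CPM over the 12 libraries, which share the 4 groups and their depths. The mean of the 7 pericyte-type members was followed most closely by Apln (r = 0.966), which encodes the vascular peptide apelin, Igfbp7 (0.965), a secreted binding protein of vessels, Pdgfrb (0.955), Postn (0.939), the matrix protein periostin, and Snx6 (0.937). Igfbp7 averaged 43.5 CPM in tumours and 11.5 CPM in normal brains. Rgs5 alone was followed by Igfbp7 (0.947), Cav1 (0.939), the coat protein of caveolae, Xpnpep1 (0.935), Col4a1 (0.928), a chain of basement membrane collagen, and Msrb3 (0.925). The mean of the 3 contractile members was followed by Lhfp (0.933), Kif1bp (0.908), Cltc (0.897), Gpd1 (0.879) and Relt (0.864), and Acta2 alone by Relt (0.935), Arl1 (0.906), Gpd1 (0.895), Lhfp (0.895) and Cltc (0.875). The 3 contractile members themselves did not form a single profile. Their r over the 12 libraries was 0.697 for Acta2 with Myh11, 0.438 for Acta2 with Tagln and -0.129 for Tagln with Myh11. Cltc, the clathrin heavy chain, averaged 692 CPM in tumours and 667 CPM in normal brains.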

How the data were processed

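Total RNA of 12 formalin-fixed, paraffin-embedded samples was isolated with RecoverAll reagents, per the labels' protocols. The submitters' processing notes name GRCm38, DESeq2 1.16.1, featureCounts 1.5.1, Subread and STAR 2.5.2b. They name no strand setting, annotation or rule for multi-mapping reads, which are thus not given in the sources used here. The table deposited by the authors holds raw read counts per gene. A second deposited table holds log2 values (rlog by its name) and served only as an alternative. RNA from fixed tissue is fragmented, which may affect low counts such as those of Higd1b.

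GENCODE M21 named 49412 of 49671 genes. Genes were kept with filterByExpr in edgeR 4.0.16 on R 4.3.3 (minimum count 10, minimum total 15) and scaled by TMM, which sets the typical gene to no change. A robust quasi-likelihood model with 4 group means (8 residual degrees of freedom, biological coefficient of variation 26.5%) gave 7 comparisons, the tumour groups weighted equally against normal brain. Adjusted p-values are Benjamini-Hochberg over 17812 genes. Comparing tumours with normal brain, the median SE (log2) was 0.23. Levels are TMM-scaled CPM. Log2 CPM used a prior count of 2. CPM per kb used the exonic length in GENCODE.

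The members and all gene lists were chosen with earlier results of these data known. Genes outside the members were named by a rule: up to 4 per list by p in tumours against normal brain, the defining markers and paralogues, and the 5 most alike by Pearson r. Pdgfb, Actg1 and the promoter windows shown were picked with their values known. The fit was tested on simulated data. For tumours against normal brain it recovered 46.4% of 2-fold changes, 88% of 4-fold and 92.8% of 8-fold ones. For IDH1WT against PDGFA tumours it recovered 27%, 72.7% and 94.4%. Genes that were not called may thus still differ by about 2-fold. Alternatives were RLE scaling, DESeq2 1.42.0, no filter, voom with quality weights and limma 3.58.1 on the deposited log2 values, library sizes without loci of ribosomal RNA type, and leaving out libraries.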

Additional observations from a re-analysis of the deposited data

How the results depend on the processing

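Over 8 kinds of alternative setting, the 10 mural genes kept the direction of their log2 fold change over all tumours in 188 of 190 fits. The number of genes called in tumours against normal brain was 929, but 2010 with DESeq2, 2204 without the low count filter, 6005 with voom quality weights, 2928 without IDH1_R132H tumour 3 and PDGFA tumour 1, and 0 (without normal brain 1) to 2536 (without PDGFA tumour 1) with single libraries left out. For IDH1_R132H, IDH1WT and PDGFA tumours against normal brain it was 1278, 307 and 54. With DESeq2 these were 2349, 1222 and 476, without the filter 2468, 1555 and 958, with voom 7320, 3008 and 436, and without the 2 libraries 2167, 1300 and 970. The deposited log2 values gave 83 for IDH1WT and 0 for PDGFA tumours. Without the filter, 79 genes were called between IDH1_R132H and IDH1WT, 627 between IDH1_R132H and PDGFA and 261 between IDH1WT and PDGFA tumours. For the last 2 comparisons DESeq2 called 126 and 10 and the fit without the 2 libraries 1 and 3. For IDH1_R132H against PDGFA, voom called 396 and the deposited log2 values 1.

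Mural genes called in all tumours were 2, with voom 7 (Myh11 lower), and 0 to 3 with single libraries left out. In IDH1_R132H tumours 1 was called, 2 with RLE scaling, without the filter or without loci of ribosomal RNA type (Abcc9 added), 3 with DESeq2 and 5 with voom. In IDH1WT tumours 3 were called, 7 with voom and 1 with the deposited log2 values. In PDGFA tumours 0 were called, and 1 (Abcc9, adjusted p = 0.049) without the filter. DESeq2 and voom called 1 (Rgs5) in IDH1_R132H against PDGFA tumours. In IDH1WT against PDGFA tumours DESeq2 called 1 (Rgs5) and the fit without the filter 1 (Abcc9). The cause was not tested.

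With single libraries left out, the count for IDH1_R132H tumours ran over 0 to 2303 genes, for IDH1WT tumours over 0 to 1090, for PDGFA tumours over 0 to 828, for IDH1_R132H against PDGFA tumours over 0 to 43 and for IDH1WT against PDGFA tumours over 0 to 1. The highest was without PDGFA tumour 1 in each case but IDH1_R132H against PDGFA, where it was without PDGFA tumour 3. Members called ran over 0 to 2 in IDH1_R132H tumours, 0 to 3 in IDH1WT tumours and 0 to 1 in PDGFA tumours. Values whose sign turned ran over -0.233 to 0.136 for Acta2, -0.69 to 0.177 for Ndufa4 and -0.146 to 0.0344 for Higd1a in all tumours. In IDH1_R132H tumours these ran over -0.301 to 0.375 for Acta2 and -0.114 to 0.881 for Higd1b. In PDGFA tumours they ran over -0.0499 to 0.934 for Higd1b, -0.573 to 0.23 for Anpep and -0.351 to 0.0269 for Vtn. Between IDH1_R132H and IDH1WT tumours they ran over -0.512 to 0.151 for Acta2, -0.536 to 0.109 for Anpep and -0.315 to 0.0954 for Ndufa4l2, and between IDH1_R132H and PDGFA tumours over -0.00993 to 0.613 for Kcnj8 and -0.367 to 0.0995 for Higd1b.

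In other settings the sign turned as follows. Without the 2 libraries Acta2 in IDH1_R132H tumours was at -0.28 and Anpep in PDGFA tumours at 0.24 (0.13 with voom), and for IDH1_R132H against PDGFA tumours Kcnj8 was at -0.0855 and, with the deposited log2 values, Higd1b at 0.00725. No paired analysis was possible because the replicate numbers only name libraries in the order of their records. Depth limits Higd1b and Ndufa4l2, at 3 to 29 counts.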
